A study of Mus musculus with 4 samples.

Results

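The regions described here are the places in the genome where Dzip3 or Ring1B gave a ChIP-seq peak in mouse embryonic stem (ES) cells, sorted by which of both proteins contributed more reads. Overlapping Dzip3 and Ring1B peaks (at least 1 bp) were merged, the longer peak's read counts were kept, and regions whose kept peak overlapped a peak of the input DNA were left out. This left 11273 of 13152 merged regions. For each, the reads of the Dzip3 library were divided by those of the Ring1B library after scaling to library size, and the result is called the read ratio. A region with a read ratio over 2 is called Dzip3-leaning, one under 0.5 Ring1B-leaning, and one in between balanced.

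The cells were E14, a 129/Ola line, at passages 3 to 5. They were grown in 2i + LIF, that is with 1 μM PD0325901 (which inhibits MEK), 3 μM CHIR99021 (which inhibits GSK3) and 1000 U/ml of the cytokine LIF. All 4 libraries came from the same unmodified cells, fixed in 1% formaldehyde: Dzip3 ChIP, Ring1B ChIP, ChIP of ubiquitylated histone H2A (ubH2A) and input DNA. There was 1 library for each, so no difference between libraries has a replicate error, no test was made, and every interval below covers counting error only. By the deposited values the Dzip3 library held 53.3 M reads and the Ring1B library 51.8 M, while ubH2A had 67.0 M and input 48.3 M, all more than the depth stated in the methods of the study. Dzip3 and Ring1B were pulled down with different antibodies, and the efficiency of an antibody and the amount of its protein on DNA cannot be told apart. A read ratio of 1 is therefore equal read share, not equal occupancy.

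Ring1B and Dzip3 are RING-type E3 ubiquitin ligases that can each place ubiquitin on histone H2A. Ring1B is the catalytic core of Polycomb repressive complex 1 (PRC1), which in ES cells sits mainly at CpG islands of developmental genes that are silent but can be activated later. Dzip3 is a separate ligase that was found on chromatin with repressor complexes, and the overlap of its sites with those of PRC1 is the question this comparison addresses.

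The ends of the scale and its middle can be seen in the DNA itself. The sequences below are the central 200 bases of 3 of the 4 most Dzip3-leaning regions, of 2 of the 3 most Ring1B-leaning regions, both among those with at least 100 reads of the Dzip3 and Ring1B libraries together, and of the region of both lists with the most reads. All are from the mm9 build (NCBIM37), + strand, 5′ to 3′, with each CpG in capitals, since PRC1 is known from CpG islands.

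Dzip3-leaning, near AW209491, chr13:14783984-14784183: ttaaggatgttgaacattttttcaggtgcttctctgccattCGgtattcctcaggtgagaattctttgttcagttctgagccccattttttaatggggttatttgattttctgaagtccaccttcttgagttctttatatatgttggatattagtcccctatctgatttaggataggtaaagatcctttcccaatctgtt
Dzip3-leaning, intron of Ptges, chr2:30750158-30750357: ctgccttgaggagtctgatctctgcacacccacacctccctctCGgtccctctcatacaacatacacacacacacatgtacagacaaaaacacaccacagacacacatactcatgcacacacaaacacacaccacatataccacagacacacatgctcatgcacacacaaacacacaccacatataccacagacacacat
Dzip3-leaning, near A2m, chr6:121645830-121646029: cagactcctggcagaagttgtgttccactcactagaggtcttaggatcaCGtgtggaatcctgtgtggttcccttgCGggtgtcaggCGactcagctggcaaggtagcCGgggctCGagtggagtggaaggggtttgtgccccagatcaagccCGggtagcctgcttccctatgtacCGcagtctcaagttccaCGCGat
Ring1B-leaning, near Shc3, chr13:51664003-51664202: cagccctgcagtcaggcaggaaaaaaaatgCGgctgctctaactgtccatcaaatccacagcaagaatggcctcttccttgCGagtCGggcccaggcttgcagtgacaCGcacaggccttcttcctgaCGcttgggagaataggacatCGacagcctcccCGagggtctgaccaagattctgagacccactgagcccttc
Ring1B-leaning, intron of Rfx4, chr10:84219701-84219900: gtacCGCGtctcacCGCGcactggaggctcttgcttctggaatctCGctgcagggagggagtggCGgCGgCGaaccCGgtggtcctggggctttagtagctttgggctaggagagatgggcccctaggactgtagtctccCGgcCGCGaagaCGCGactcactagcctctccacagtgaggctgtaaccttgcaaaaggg
Both lists, nearest gene Zfp326, chr5:106586590-106586789: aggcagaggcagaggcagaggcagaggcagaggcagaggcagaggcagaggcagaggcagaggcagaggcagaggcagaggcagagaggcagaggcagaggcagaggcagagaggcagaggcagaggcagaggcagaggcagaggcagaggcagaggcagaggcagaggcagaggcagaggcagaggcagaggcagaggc

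The Ring1B-leaning stretches held 7 and 14 CpGs, and the Dzip3-leaning ones held 1, 1 and 9. The stretch by Ptges holds many CA dinucleotides in short runs, and the one shared by both proteins is a simple repeat of aggcag with 0 CpGs. The region near AW209491 was made wholly of 31-base words that occur elsewhere in the genome (100%). Such words made up 90.9% of the region near A2m, 30.1% of that in Ptges and 86.3% of that near Zfp326. The regions at Shc3 and Rfx4 held 0% of them.

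Ring1B-leaning regions outnumbered Dzip3-leaning ones. Of the 11273 regions, 5498 (48.8%) were Ring1B-leaning, 1771 (15.7%) were Dzip3-leaning and 4004 were balanced. The list of origin largely sets this outcome, because a peak exists in a list only where that library had many reads. Of the 2827 regions with a Dzip3 peak only, 1733 (61.3%) were Dzip3-leaning and 0 were Ring1B-leaning, and of the 6606 with a Ring1B peak only, 5366 (81.2%) were Ring1B-leaning and 0 Dzip3-leaning. The 1840 regions in both lists centred on a median read ratio of 0.996, and 1670 of them (90.8%) were balanced, 38 (2.07%) Dzip3-leaning and 132 (7.17%) Ring1B-leaning. The shares of leaning regions are thus a description of the lists and not evidence of a preference.

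**Figure D1:**
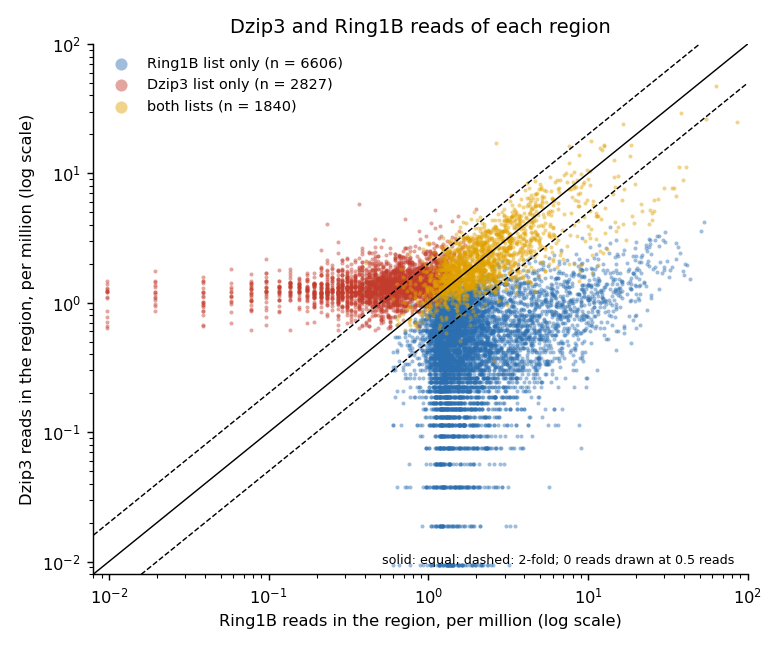
Each point is 1 of the 11273 regions, with Ring1B reads on the x axis and Dzip3 reads on the y axis, each scaled to 1 M reads of its library (log scales), coloured by the list of origin. The solid line marks equal read share and the dashed lines 2-fold. The 6606 regions of the Ring1B list only reach high Ring1B counts below the diagonal, while the 2827 of the Dzip3 list only form a flat band at low counts.

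**Figure D2:**
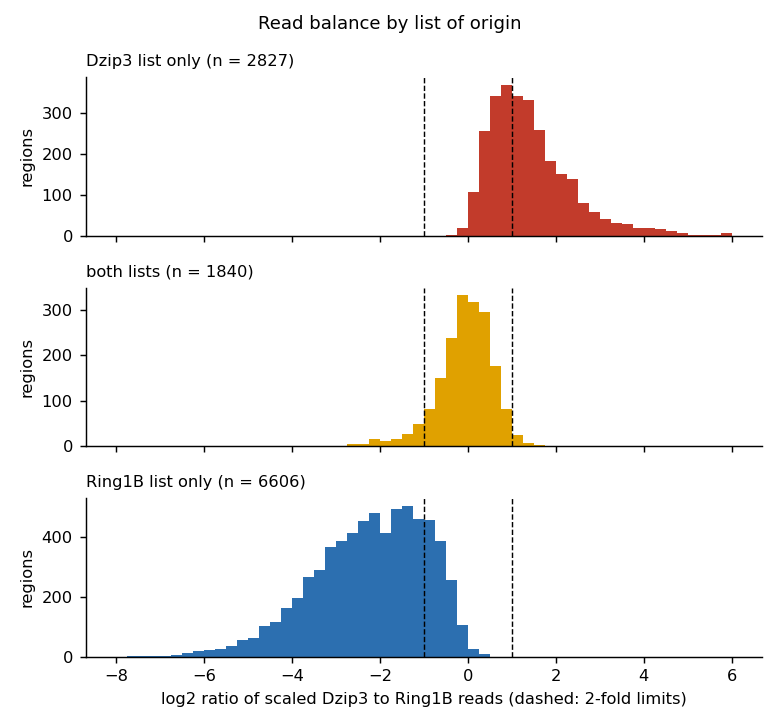
Number of regions by log2 read ratio (x axis, bins of 0.25) for the 3 lists of origin, with dashed lines at the 2-fold limits. Regions with 0 reads of a library are drawn at a floor of 3 reads. The regions of both lists (n = 1840) centre on a log2 ratio near 0, and the regions of a single list lie on their own side, with a longer tail for Ring1B.

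Regions on the Ring1B side held more reads, but these are the counts that formed the groups. They were also longer, with a median of 313 bp against 222 bp. Per kb and per M reads, the leading protein had a median of 6.13 reads in Ring1B-leaning and 5.82 in Dzip3-leaning regions. The median read ratio was 3.18 in Dzip3-leaning and 0.191 in Ring1B-leaning regions. A Dzip3-leaning region had a median of 72 Dzip3 and 22 Ring1B reads, and a Ring1B-leaning one 22 Dzip3 and 91 Ring1B reads. The exact 95% interval of the ratio lay wholly beyond 2-fold for 861 Dzip3-leaning (48.6%) and 4192 Ring1B-leaning regions (76.2%). The next regions on either side of the upper limit were at 2.001, 5.86 kb from Itgal (70 Dzip3 and 34 Ring1B reads), and at 1.997, near Stxbp5 (111 and 54 reads). At the lower limit they had 36 and 70 reads near Tmem181b-ps and 35 and 68 near Utp6. Such neighbours do not differ beyond their counting error.

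Length differed too. Regions longer than 1 kb numbered 369 among Ring1B-leaning, 16 among balanced and 0 among Dzip3-leaning regions. A length of exactly 200 bp, the shortest, was found for 37.4% of Dzip3-leaning and 16.7% of Ring1B-leaning regions. Only 15 regions had 0 Ring1B reads and 75 had 0 Dzip3 reads, so leaning regions mostly held some reads of the other protein.

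The position relative to genes was not used to form the groups. Of the Ring1B-leaning regions, 3086 (56.1%, 95% Wilson interval 54.8 to 57.4%) lay within 4 kb of the transcription start site (TSS) of a protein-coding gene, against 267 of the Dzip3-leaning (15.1%, 13.5 to 16.8%) and 570 of the balanced regions (14.2%, 13.2 to 15.4%). The median distance to the nearest TSS was 2.44 kb for Ring1B-leaning, 26.0 kb for Dzip3-leaning and 33.3 kb for balanced regions. A TSS lay inside 12.8% of the Ring1B-leaning regions, 1.19% of the Dzip3-leaning and 1.75% of the balanced ones. More than 100 kb from any TSS were 21.2% of Dzip3-leaning, 25.9% of balanced and 7.08% of Ring1B-leaning regions. In distance from genes Dzip3-leaning regions thus resembled balanced regions more than Ring1B-leaning ones.

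The annotated place differed as well. Exons held 44.7% of Ring1B-leaning, 13.8% of Dzip3-leaning and 11.6% of balanced regions. Introns held 41.2% of Dzip3-leaning (38.9 to 43.5%), 27.1% of Ring1B-leaning (26.0 to 28.3%) and 34.8% of balanced regions (33.4 to 36.3%). These intervals count regions as independent and can be too narrow. Outside annotated transcripts lay 797 Dzip3-leaning, 1550 Ring1B-leaning and 2143 balanced regions, the last being 53.5% of their group.

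The share near a TSS moved in steps with the ratio on the Ring1B side only. It was 71.4% for 633 regions with a ratio under 1/16, 71.6% from 1/16 to 1/8, 60.5% from 1/8 to 1/4, 38.6% from 1/4 to 1/2 and 16.2% from 1/2 to 1. From there it stayed between 12.3% and 15.5%, with 12.6% for the 191 regions with a ratio over 8. A stronger lean to Dzip3 therefore did not go with a larger share near start sites.

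**Figure D3:**
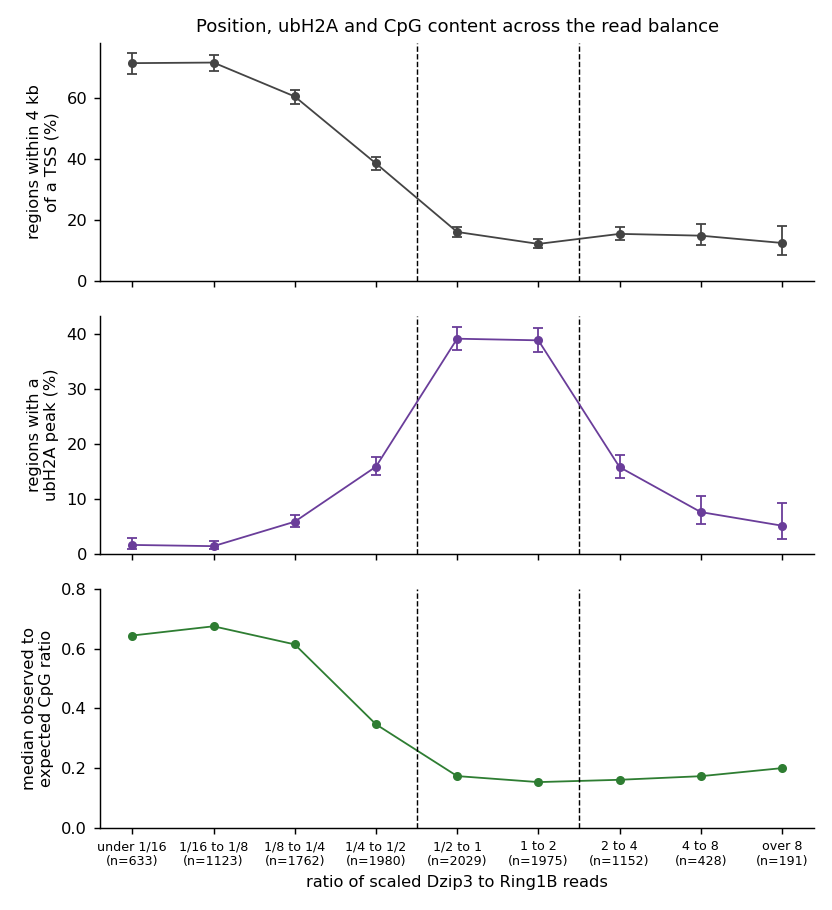
Share of regions within 4 kb of a TSS (top), share with a ubH2A peak (middle) and median observed to expected CpG ratio (bottom) in 9 bins of the read ratio, with the number of regions in each bin. Error bars are 95% Wilson intervals, and dashed lines mark the 2-fold limits. The share near a TSS falls from 71.4% to 12.6%, and the ubH2A share peaks at 39.2% and 38.9% in the 2 balanced bins.

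Base composition moved together with the position. The middle 50% of regions had a GC content of 54.6 to 65.2% among Ring1B-leaning, 46.8 to 56.3% among Dzip3-leaning and 47.2 to 57.8% among balanced regions. The ratio of observed to expected CpGs, which is low in most of the mouse genome and high in CpG islands, had a median of 0.565 in Ring1B-leaning, 0.166 in Dzip3-leaning and 0.161 in balanced regions. A GC content over 50% together with a CpG ratio over 0.6, the composition of a CpG island, was found in 2529 Ring1B-leaning regions (46.0%), 72 Dzip3-leaning regions (4.07%) and 335 balanced regions (8.37%). The shares near a TSS were also compared at like GC content. Under 45% GC, 9.36% of Ring1B-leaning (6.26 to 13.8%) and 5.59% of Dzip3-leaning regions (3.52 to 8.77%) lay within 4 kb of a TSS, with intervals that overlap. Among regions of 45 to 50% GC, 17.0% of Ring1B-leaning (13.8 to 20.7%) and 10.2% of Dzip3-leaning regions (7.59 to 13.5%) did so. From 50 to 55% GC these were 37.1% and 11.1%, from 55 to 60% GC 53.1% and 22.2%, and from 60 to 65% GC 67.8% and 31.8%. The part of base composition in the read counts themselves was not tested.

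Repeated sequence also differed. The median share of 31-base words that occur elsewhere in the genome was 77.8% in balanced regions, 9.01% in Dzip3-leaning and 0% in Ring1B-leaning ones, and it was 88.4% over the regions of both lists. Regions without any such word were 64.8% of Ring1B-leaning, 39.5% of Dzip3-leaning and 15.0% of balanced regions. Input reads moved with these groups. Input DNA had a median level of 0.397 RPKM, or reads per kb of region and per M reads of the library, in Dzip3-leaning, 0.207 in Ring1B-leaning and 0.485 in balanced regions, all of which had been chosen to lack an input peak. The part of repeated sequence and input in the read ratio was not tested.

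Short motifs were counted on both strands in the central 200 bp of every region. A run of CA dinucleotides (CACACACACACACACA) was found in 8.41% of Dzip3-leaning (7.21 to 9.80%), 4.80% of Ring1B-leaning and 5.22% of all regions. The telomere-type repeat TTAGGGTTAGGG was in 34 regions (0.302%), and all 34 were balanced. The letters TTCCCGC, a core of E2F sites, were in 3.24% of Ring1B-leaning and 0.621% of Dzip3-leaning regions against 1.90% of all. The E-box CACGTG was in 6.78%, 6.73% and 6.01% of Dzip3-leaning, Ring1B-leaning and all regions, and the octamer-type letters ATGCAAA in 2.82%, 1.76% and 2.32%. The Sox-type letters ACAAAG were in 9.43%, 6.51% and 7.76%, and the GATA-type letters AGATAA in 2.88%, 1.87% and 2.67%. The GA run GAGAGAGAGAGAGAGA was rare at 0.346% of all regions and GGAAGGAAGGAAGGAA was in 1 region. A match is a description of the letters and does not show a bound factor.

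The mark that both ligases can make, ubH2A, was compared next. Over all regions, a ubH2A peak overlapped 39.1% of balanced regions (37.6 to 40.6%), 12.8% of Dzip3-leaning (11.3 to 14.4%) and 8.17% of Ring1B-leaning ones (7.47 to 8.92%). By ratio, the share was 1.74% for ratios under 1/16, 5.96% from 1/8 to 1/4, 39.2% from 1/2 to 1, 38.9% from 1 to 2, 15.9% from 2 to 4 and 5.24% over 8. The groups lie in different lists, which matters for this measure. Within the regions of both lists, a ubH2A peak overlapped 59.7% of balanced (57.3 to 62.0%), 55.3% of Dzip3-leaning (39.7 to 69.9%) and 72.0% of Ring1B-leaning regions (63.8 to 78.9%). Among these regions the order of both leaning groups was the opposite of that over all regions, with intervals that do overlap. The interval of Ring1B-leaning regions does not overlap that of balanced ones, but it counts regions as independent. Of these 132 regions, 25 lay from 126 to 127 Mb of chromosome 8 and 10 from 47 to 48 Mb of chromosome 6. The interval can therefore be too narrow, and no difference from balanced regions is drawn from it. At like GC content the order varied. The Dzip3-leaning share was the lower at 50 to 55% GC, with 11.1% (8.54 to 14.2%) against 12.3% of Ring1B-leaning regions (10.2 to 14.8%), and under 45% GC (14.1% and 20.4%). It was the higher at 45 to 50% GC (20.3% and 19.7%), 55 to 60% (8.37% and 7.76%), 60 to 65% (8.11% and 7.08%) and over 65% GC (7.50% and 1.62%). Only over 65% GC did the intervals not overlap, and these intervals too count regions as independent. The groups also differed in repeated 31-base words, with medians of 77.8% in balanced, 9.01% in Dzip3-leaning and 0% in Ring1B-leaning regions. Among regions with no such word, a ubH2A peak overlapped 4.43% of Dzip3-leaning and 1.54% of Ring1B-leaning regions. The part of repeated sequence in the ubH2A shares was not tested.

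The read levels show how far a lean is a matter of degree. In Dzip3-leaning regions the median was 5.82 Dzip3, 1.76 Ring1B, 1.79 ubH2A and 0.397 input RPKM. In Ring1B-leaning regions it was 1.20 Dzip3, 6.13 Ring1B, 1.15 ubH2A and 0.207 input RPKM. The protein with fewer reads was therefore at 4.44 times the input level in Dzip3-leaning and at 5.80 times in Ring1B-leaning regions, as a ratio of medians. The order of these multiples rests on the lower input level of Ring1B-leaning regions. Without input it turns, at 1.76 RPKM of Ring1B and 1.20 RPKM of Dzip3. On the same scale ubH2A was at 5.998 times the input level in balanced, 5.56 times in Ring1B-leaning and 4.51 times in Dzip3-leaning regions. Against input the order of the leaning groups thus differs from that of the peak shares, while the ubH2A levels themselves (1.15 and 1.79 RPKM) have the order of the peak shares. In the lowest bin, under 1/16, Dzip3 was at 0.252 and input at 0.204 RPKM, so little Dzip3 above input was read there. In the highest bin, over 8, Ring1B was at 0.436 and input at 0.311. Balanced regions had medians of 5.05 for Dzip3, 5.17 for Ring1B and 2.91 for ubH2A.

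**Figure D4:**
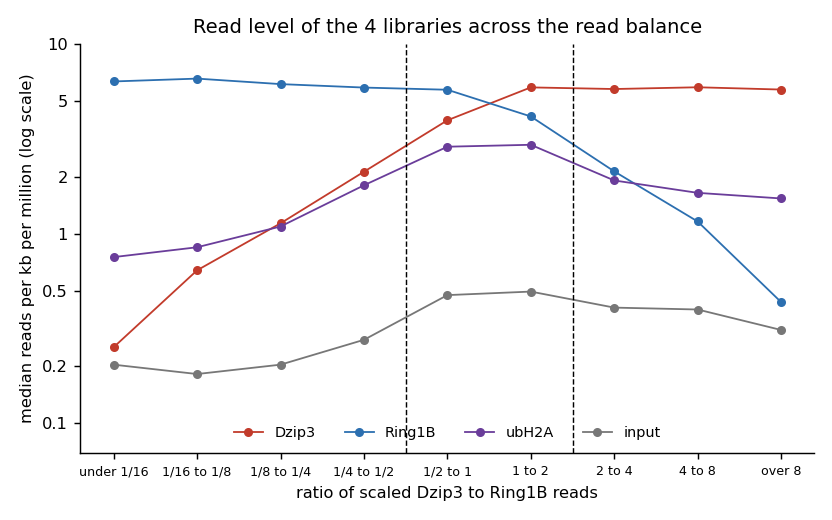
Median RPKM of the 4 libraries (y axis, log scale) in the 9 bins of the read ratio (x axis), with dashed lines at the 2-fold limits. Ring1B stays near 6 up to a ratio of 1 and falls to 0.436, Dzip3 rises from 0.252 to above 5, and the medians of ubH2A and input are both highest in the balanced bins.

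Among regions with at least 100 reads, the one with the highest ratio, 61.4 kb from AW209491, had 98 Dzip3 and 3 Ring1B reads, a ratio of 31.7 (exact 95% interval 10.5 to 157). The region in an intron of Ptges, the gene for prostaglandin E synthase, had 117 Dzip3 and 5 Ring1B reads at 2.55 kb downstream of the TSS, a ratio of 22.7 (9.47 to 71.3). A region 5.97 kb upstream of Fam59a had 215 Dzip3 and 12 Ring1B reads (17.4, 9.76 to 34.2). The deepest of the 10 regions with the highest ratios, 59.6 kb from A2m, the gene for the protease inhibitor alpha-2-macroglobulin, had 307 Dzip3 and 19 Ring1B reads (15.7, 9.88 to 26.4). Others were nearest to Hs6st3, a heparan sulfate sulfotransferase (15.5), the olfactory receptor gene Olfr76 (12.1), Efcab6 (10.8), Hdhd1a (9.83) and the zinc finger gene Zbtb40 (9.31). All 10 came from the Dzip3 list only, those near Fam59a and Hs6st3 overlapped a ubH2A peak, and 4 of them lay more than 50 kb from the nearest TSS. Repeated 31-base words made up 100% of the region near Hdhd1a, 90.9% near A2m, 84.0% near Olfr76 and 79.7% near Fam59a. The share was 46.9% near Hs6st3, 24.0% near Efcab6 and 0% near Zbtb40, beside a median of 9.01% in Dzip3-leaning regions.

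Near start sites, Dzip3-leaning regions were found at genes of mixed function. Of 22380 protein-coding genes, 302 (1.35%) had a Dzip3-leaning region within 4 kb of a TSS, against 1861 (8.32%) with a Ring1B-leaning and 556 (2.48%) with a balanced one. After Ptges, the genes with the highest ratios among regions with at least 100 reads were Efcab6 (156 Dzip3 and 14 Ring1B reads, 10.8), Ttc7 (101 and 11, 8.92) and Gna15, which encodes a G protein alpha subunit (93 and 14, 6.45). Gm1979 had 100 and 19 reads (5.11), Phactr3, a regulator of phosphatase and actin, 117 and 23 (4.94), and Il4, the cytokine interleukin 4, 86 and 17 reads at 3.73 kb upstream (4.92). Pml, the scaffold of PML nuclear bodies, had 95 and 19 reads at 1.28 kb upstream (4.86). Kcnt1, a potassium channel gene, had 123 and 25 (4.78), Fam149a 97 and 21 (4.49), Accn2, an acid-sensing ion channel gene, 113 and 25 (4.39) and Ralgds, an exchange factor for Ral GTPases, 108 and 24 (4.37). None of these 12 belonged to any of the developmental gene lists below. Those lists hold few of the 22380 genes, so this is not a result about the 12. Of the 12 regions only the one at Gm1979 overlapped a ubH2A peak, beside 12.8% of all Dzip3-leaning regions. Input had 37 reads in that region, above the median of 4 in Dzip3-leaning regions and above its 19 Ring1B reads. Its Ring1B reads thus did not exceed input. Gm1979 and Ttc7 each also had a Ring1B-leaning region within 4 kb of a TSS. These held 402 Dzip3 and 869 Ring1B reads at Gm1979, and 35 and 96 at Ttc7.

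The most Ring1B-leaning regions with at least 100 reads included several at genes that regulate development. The region 1.41 kb upstream of Shc3, an adaptor protein of neurons, had 169 Ring1B reads and 1 Dzip3 read, which is 174-fold more for Ring1B (exact 95% interval 30.8 to 6910). An intronic region of Rfx4, a transcription factor of the developing brain, had 158 Ring1B reads and 1 Dzip3 read (163-fold, 28.8 to 6463). With 1 Dzip3 read the size of these folds is hardly fixed, and regions with more reads bound it better. A region of 776 bp across the TSS of Egr3, an immediate early transcription factor, had 293 Ring1B and 2 Dzip3 reads (151-fold, 41.4 to 1251). The 1013 bp region 0.189 kb upstream of Tlx3, a homeobox gene that sets neuron type, had 469 and 4 (121-fold, 46.8 to 445). The region across the TSS of Dll1, a Notch ligand, had 452 and 6 (77.5-fold, 35.3 to 212). Others of the 10 lowest ratios were in Ntn4, a netrin, and Svep1, an adhesion protein of the matrix (both 112-fold), in Gm12830 (103-fold) and 79.7 kb downstream of Nr2f2, an orphan nuclear receptor (83.9-fold). None of the 10 overlapped a ubH2A peak, beside 8.17% of all Ring1B-leaning regions. The lowest ratios at promoters further included the potassium channel gene Kcna2 and the Wnt ligand Wnt10b (149 Ring1B and 2 Dzip3 reads each, 76.7-fold), Zfp692 (73.1-fold), Pax6, the regulator of eye and brain development (71.0-fold), and Hoxc9 (69.5-fold).

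Many of the listed developmental regulators carried Ring1B-leaning regions. Of 39 Hox genes, which set positions along the body axis, 32 had a Ring1B-leaning region within 4 kb of a TSS (82.1%, 67.3 to 91.0%), beside 8.32% of all protein-coding genes. The counts were 79 of 88 for homeobox genes outside the Hox clusters (89.8%), 18 of 23 for T-box and Gata factors (78.3%), 29 of 47 for Sox and Fox factors (61.7%), 26 of 44 for proneural and related bHLH factors (59.1%) and 25 of 54 for Wnt, Fgf and Bmp ligands (46.3%). The median read ratio of the regions within 4 kb was 0.098 for Hox, 0.098 for the other homeobox, 0.101 for Sox and Fox, 0.110 for T-box and Gata, 0.111 for bHLH and 0.131 for the ligand genes, beside 0.523 over all 11273 regions, most of which lie farther from a TSS. Regions of the same gene are not independent, since 361 regions lay near the homeobox genes outside the Hox clusters alone.

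Within these lists the regions with the most reads lay across a TSS or within 4 kb of one. Isl2, a homeobox gene of motor neurons, had a region with 2243 Ring1B and 81 Dzip3 reads (28.5-fold), and Foxb2 one with 2162 and 105 (21.2-fold). Olig2, a bHLH factor of oligodendrocytes and motor neurons, had 2040 and 93 (22.6-fold) and Neurod2, a neuronal bHLH factor, 1888 and 144 (13.5-fold). Among Hox genes the region across the TSS of Hoxd11 had 1092 and 73 reads (15.4-fold), and Hoxb2 had 955 and 26 at 1.01 kb (37.8-fold). Wnt1, needed for midbrain development, had 1448 and 147 (10.1-fold), Tbx1, a T-box factor of the pharynx, 1207 and 133 (9.34-fold) and Gata6, an endoderm regulator, 1075 and 82 (13.5-fold). Uncx, Six2 and Nkx2-1 had between 1656 and 1836 Ring1B reads at 16.3-fold to 20.3-fold.

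Dzip3-leaning regions near start sites were few among listed genes, as among all genes. They were found at 1 of 88 homeobox genes outside the Hox clusters, 1 of 29 naive pluripotency factors, 1 of 37 Polycomb and Dzip3 genes and 1 of 71 ribosomal protein genes, and at 0 genes of the other 7 lists, beside 1.35% of all genes. The homeobox gene was Cdx1, a posterior patterning factor, with 76 Dzip3 and 31 Ring1B reads in an intron (2.38, 1.55 to 3.74). The pluripotency gene was Prdm14, which represses differentiation in ES cells, with 75 and 15 reads 3.90 kb downstream of a TSS (4.86, 2.77 to 9.11). The Polycomb list gave Usp16, an enzyme that removes ubiquitin from H2A, with 83 and 27 reads (2.99, 1.91 to 4.80). Input had 22 reads in the region of Usp16, above the median of 4. The ribosomal gene was Rpl36, with 76 and 7 reads (10.6, 4.88 to 27.1). Within 100 kb, 7 of 39 Hox genes (17.9%), 16 of 88 other homeobox genes (18.2%) and 15 of 54 ligand genes (27.8%) had a Dzip3-leaning region, beside 18.7% of all genes. At 4 kb and at 100 kb, a share near the background is not a result about these genes.

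**Figure D5:**
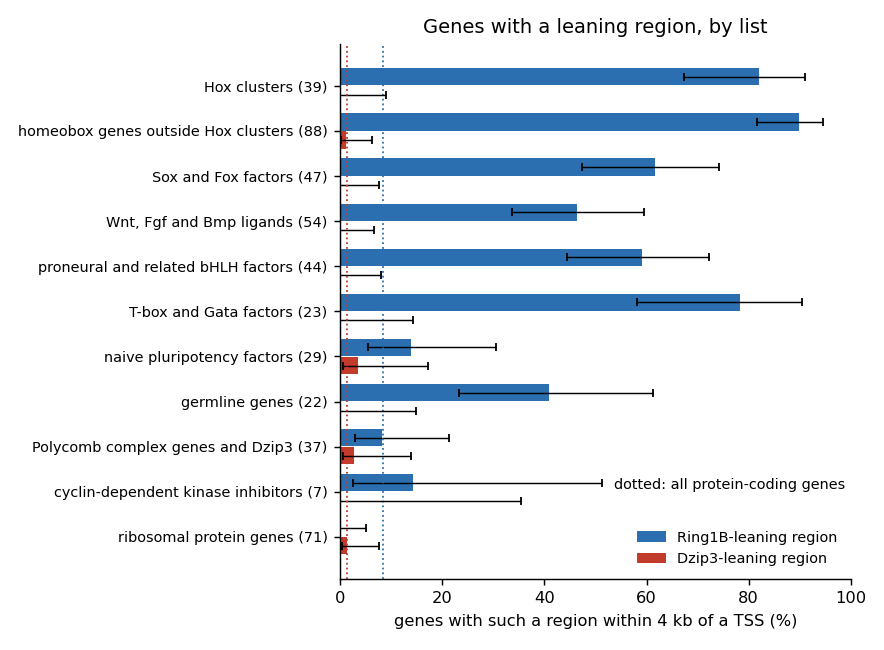
Percentage of the annotated genes of each list (number in brackets) with a Ring1B-leaning (blue) or a Dzip3-leaning (red) region within 4 kb of a TSS, with 95% Wilson intervals, and dotted lines at the shares of all protein-coding genes (8.32% and 1.35%). The 6 developmental lists reach 46.3% to 89.8% for Ring1B-leaning regions, and no list has more than 1 gene with a Dzip3-leaning region.

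The remaining lists differed among themselves. Beside the 8.32% of all genes, Ring1B-leaning regions were near 9 of 22 germline genes (40.9%, 23.3 to 61.3%), 4 of 29 naive pluripotency factors (13.8%, 5.50 to 30.6%), 3 of 37 Polycomb and Dzip3 genes (8.11%), 1 of 7 cyclin-dependent kinase inhibitors and 0 of 71 ribosomal protein genes (Wilson upper limit 5.13%). The pluripotency genes were Esrrb, an orphan nuclear receptor of the naive state (158 Ring1B and 10 Dzip3 reads, 16.3-fold), Gbx2 (120 and 28, 4.41-fold) and the Nodal inhibitors Lefty1 (100 and 33, 3.12-fold) and Lefty2 (60 and 11, 5.61-fold). The germline genes included Zbtb16, a factor of spermatogonial stem cells (342 and 19, 18.5-fold), and the synaptonemal complex genes Sycp1 (114 and 37, 3.17-fold) and Sycp2 (126 and 31, 4.18-fold). In the Polycomb list, whose share is near that of all genes, the PRC1 subunit genes Cbx8 (349 and 51, 7.04-fold) and Phc2 (58 and 14, 4.26-fold) had Ring1B-leaning regions. Cdkn1c, an imprinted inhibitor of cell division, had 323 Ring1B and 45 Dzip3 reads (7.39-fold).

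The study also followed single genes. Of these 10 genes, 2 (Wilson interval 5.67 to 51.0%) had a Dzip3-leaning and 5 a Ring1B-leaning region within 100 kb, beside 18.7% and 37.1% of all genes. Neurod1, a neuronal bHLH gene, had a single region within 100 kb, 31.9 kb upstream, with 87 Dzip3 and 37 Ring1B reads (ratio 2.28, 1.54 to 3.45). Neurog1, a proneural bHLH gene, had 6 regions within 100 kb, and all 6 were Ring1B-leaning. The region across its TSS had 713 Ring1B and 68 Dzip3 reads (ratio 0.093, 0.071 to 0.119), and the next one upstream 81 and 31 (0.372). At Shank3, a scaffold gene of synapses, 5 of 8 regions within 100 kb were Ring1B-leaning, with ratios of 0.345 and 0.446 for those within 4 kb of a TSS, and 1 was Dzip3-leaning, 39.5 kb upstream with 70 and 21 reads (3.24, 1.97 to 5.56). The mesoderm gene T (Brachyury) had 345 Ring1B and 17 Dzip3 reads just upstream of its TSS (ratio 0.048, 0.028 to 0.078), and 4 of its 6 regions were Ring1B-leaning.

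Eomes, a T-box gene of mesoderm and endoderm, had 3 Ring1B-leaning regions within 4 kb. The one 0.341 kb upstream had 85 Ring1B and 0 Dzip3 reads, which against a floor of 3 reads is a ratio of 0.034. Its exact interval, from the 0 reads themselves, runs from 0 to 0.043. The other two had 185 and 21 reads, and 62 and 7 reads, each at 0.110. Stra8, a gate of meiosis, had Ring1B-leaning regions at 67.1 and 77.8 kb (0.205 and 0.137). Both regions around Bspry were balanced, with 52 Dzip3 and 27 Ring1B reads (1.87) at 86.1 kb and 33 and 63 (0.509) at 31.7 kb, and so was the single region 67.7 kb from Acta1 (0.702). Cdh2 and Rhox6 had 0 regions within 100 kb. That count covers only called peaks left after the input filter and does not show that Dzip3 is absent. By ChIP-qPCR the study reports Dzip3 around the promoters of Cdh2, Neurod1 and Neurog1.

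Some genes had both kinds near their start sites. Within 4 kb, 34 genes (0.152% of all) had a Dzip3-leaning and a Ring1B-leaning region. That is 34 of the 302 with a Dzip3-leaning one, beside 8.32% of all genes with a Ring1B-leaning one. Any annotated TSS of a gene counted, so both kinds need not lie at the same start site. Within 100 kb there were 2205 such genes (9.85%). Cdh23, a cadherin of the inner ear, and H2-Ab1, a class II histocompatibility gene, were picked from the 34 after their values were seen. Cdh23 had a region across a TSS with 519 Ring1B and 56 Dzip3 reads (0.105), and another, 3.62 kb downstream of a TSS, with 88 Dzip3 and 29 Ring1B reads (2.95). H2-Ab1 had 254 Ring1B and 60 Dzip3 reads in one region (0.230) and 58 Dzip3 and 24 Ring1B reads in another (2.35).

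Regions with peaks of both proteins had medians of 104 Dzip3 and 102 Ring1B reads, above those of regions in a single list. A region is in both lists only where both libraries had many reads, so the higher counts follow from the selection. Within 4 kb of a TSS lay 176 of the 1840 (9.57%), which were 25 of the Ring1B-leaning (18.9%, 13.2 to 26.5%), 151 of the balanced (9.04%, 7.76 to 10.5%) and 0 of the 38 Dzip3-leaning regions (upper limit 9.18%). The deepest was the aggcag repeat printed above, 253 kb from Zfp326, with 2527 Dzip3 and 3281 Ring1B reads (ratio 0.748, 0.710 to 0.788), yet 38 ubH2A and 4 input reads. A region of 2716 bp at Muc19, a mucin gene, had 1325 and 4426 reads (0.291, 0.273 to 0.309), with 1340 ubH2A reads. Regions near Tmem125 (1393 and 2836 reads, 0.477) and 88.7 kb upstream of Ezh2, the histone H3 methyltransferase of PRC2 (602 and 2122, 0.276), were Ring1B-leaning as well. Of the 31-base words, 100% near Ezh2, 89.8% at Muc19, 79.0% near Tmem125 and 86.3% near Zfp326 occurred elsewhere in the genome. Input had 88 reads near Ezh2, 143 at Muc19 and 96 near Tmem125.

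The 38 Dzip3-leaning regions of both lists had a median ratio of 2.22, near the limit. The deepest lay 8.32 kb downstream of Hhex, a homeobox gene of blood and endoderm, with 865 Dzip3 and 392 Ring1B reads (2.14, 1.90 to 2.42), and a ubH2A peak covered 98.2% of it. The region 33.4 kb upstream of Cecr2, a chromatin remodelling factor, had 910 and 138 reads (6.41, 5.35 to 7.72) and 30 ubH2A reads. That was the only one of the 8 deepest with a ratio above 3, the other 7 lying between 2.04 and 2.62. By contrast the 132 Ring1B-leaning regions of both lists were crowded in places. From 126 to 127 Mb of chromosome 8 there were 25, with ratios of 0.168 to 0.371, and from 47 to 48 Mb of chromosome 6 there were 10, with 0.169 to 0.383. In both windows the median share of repeated 31-base words was 100%, and its part in the ratio was not tested.

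Crowding on the Ring1B side was also seen at Hox clusters. In the 1 Mb windows that hold Hoxd11, on chromosome 2 from 74 to 75 Mb, and Hoxb2, on chromosome 11 from 96 to 97 Mb, all 34 regions each were Ring1B-leaning, and in that with Hoxa10, on chromosome 6 from 52 to 53 Mb, 62 of 68 were. Apart from Y and mitochondrial DNA, which held 5 regions and 1 region, the X had the lowest shares of leaning regions of any chromosome. Of its 288 regions 54 (18.8%) were Ring1B-leaning and 33 (11.5%) Dzip3-leaning, against 48.8% and 15.7% of all regions.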

How the data were processed

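The 4 ChIP-seq libraries (1 per target) are from E14 mES cells in 2i + LIF. Alignment by the authors was to mm9 with at most 1 mismatch, and the Partek Genomics Suite was run by them on every library, input included, for peaks at an FDR of 0.1. Chromatin was fragmented with micrococcal nuclease by the paper's account and by shearing according to the sample labels, and which was used cannot be told apart here. The authors deposited, for each peak, counts of the reads of the 4 libraries, the height as RPM (reads scaled to library size), the percent of the peak that peaks of the other libraries cover, and a p-value and a scaled fold against input DNA. The fold was not used, and the p-value served only to rank peaks in an alternative.

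Library sizes were computed from the height and the RPM of each peak. A row of the ubH2A and of the input list (1 each) did not have the columns of the others and was left out, which does not touch the read ratio or the overlaps, since these come from the Dzip3 and Ring1B lists. Where several peaks merged, the longest was kept. A read ratio with 0 reads on a side was computed against a floor of 3 reads. A region with 0 reads can therefore rank as less extreme than one with 1 read. Shares have 95% Wilson intervals and ratios exact (Clopper-Pearson) ones, which cover counting error only. Distances run from the edge of a region to the closest protein-coding TSS in the GENCODE annotation of the same build, and exons take precedence over introns. Repeated sequence is the share of 31-base words of a region found more than once in the genome on either strand. Levels per kb use the length of the region.

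The genes and regions named are the 10 highest and 10 lowest ratios and the 12 genes per direction with the most extreme ratio within 4 kb, all with at least 100 reads of both libraries, up to 4 genes per list and direction with the most reads, the 5 deepest regions of both lists, and the genes the study names. Regions, lists and rules were chosen with earlier results of these data known. A crowded window and some of the regions and genes that the rule names are not reported here by themselves. Merging and classification recovered all 1500 shared regions planted when tested on simulated data. The alternatives were other scalings, a pseudocount, input subtraction, other merging, filters and limits, and other start sites. Calculations used matplotlib 3.10.9, numba 0.67.0, numpy 2.4.6, pandas 2.3.3, pysam 0.24.0, scipy 1.17.1 and Python 3.11.15.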

Additional observations from a re-analysis of the deposited data

How the results depend on the processing

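No paired analysis was possible because every target has only 1 library. Ring1B-leaning regions had the larger share within 4 kb of a TSS under all 18 alternatives, but the order of the ubH2A shares turned under 2, named in the report. A peak needed at least 33 extended reads in the Dzip3 list and 31 in the Ring1B list, so weaker regions were not detectable at this depth. The cause of the moves was not tested where the alternative does not itself remove regions.

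The settings that moved a value follow, always as Dzip3-leaning and then Ring1B-leaning regions. In numbers, the stronger 50% of each list gave 1087 and 3611, at least 100 reads gave 722 and 3349, both lists only gave 38 and 132, and the 3-fold limit and the intervals past 2-fold, the latter chosen after seeing the data, gave 970 and 861 Dzip3-leaning regions. The shares within 4 kb of a TSS became 12.6% and 63.5% with at least 100 reads, 0% and 18.9% in both lists, 19.0% and 61.5% with the TSS of any annotated gene, and, chosen after seeing the data, 11.1% and 37.1% at 50 to 55% GC and 22.0% and 71.3% without repeated words. The Ring1B-leaning share alone moved to 54.3% with scaling by reads in input peaks free of both proteins, 54.3% with input subtracted, 67.0% in the stronger 50%, 62.4% at 3-fold and 63.1% with intervals past 2-fold. The ubH2A shares became 14.9% and 9.72% with input subtracted, 21.3% and 9.82% with at least 100 reads, 14.8% and 9.55% without the input filter, 55.3% and 72.0% in both lists, 8.87% and 4.99% at 3-fold, 9.64% and 5.53% with intervals past 2-fold, 11.1% and 12.3% at 50 to 55% GC and 4.43% and 1.54% without repeated words. The Ring1B-leaning share alone moved to 9.26% with the scaling by input peaks and to 7.25% without the 10 densest windows. The other 55 values stayed within 1.5 times for counts or within the interval for shares.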
